A study of Mus musculus with 16 samples.

Results

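The genes described here make cholesterol and fatty acids or control that synthesis in the liver. Of 39 genes listed for the pathway, 38 had a probe set annotated with exactly that 1 symbol, and where a gene had several, the one with the highest mean signal across the 16 arrays stood for it. Acat2 was not matched to such a probe set and has no value here. The 38 genes are a small set among the 18820 genes measured in this way. They were divided into a sterol arm of 22 genes (16 enzymes, the cholesterol carrier Stard4 and the 5 control genes Srebf1, Srebf2, Scap, Insig1 and Insig2) and a lipogenic arm of 16 genes.

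RNA from whole liver of 16 male mice was hybridised to 1 array per animal, with 4 animals in each of 4 genotypes, all aged 7 days, fed standard chow and of a mixed C57/BL6 - SV129Ola background. In TRAF2/Casp8 KO mice the loxP-flanked alleles of Traf2 and Casp8 were deleted by alfp-Cre, which acts in liver parenchymal cells (the genotype the labels write as TRAF2/Casp-8LPC-KO). RIPK3 triple KO mice carried the same deletions and lacked Ripk3 in every cell of the body (TRAF2/Casp-8LPC-KO/RIPK3-/-), and IKKβ triple KO mice carried them with a further parenchymal deletion of Ikkβ (TRAF2/Casp-8/IKKbetaLPC-KO). WT animals were Cre-negative littermates with the loxP-flanked alleles, so alfp-Cre itself was present in all 3 knockout genotypes and absent from WT. In this pathway TRAF2 links TNF receptors to survival signals, and caspase-8 both triggers apoptosis and holds back necroptosis. Necroptosis needs the kinase RIPK3, while IKKβ switches on NF-κB. The labels give a mouse identity to each array but not the litter. Since the whole liver was used, fewer cells of a type and less RNA per cell cannot be told apart in any value below.

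Cholesterol is built from acetyl-CoA through mevalonate, squalene and lanosterol, and fatty acids are built from the same precursor by acetyl-CoA carboxylase and fatty acid synthase. Both routes are controlled by the SREBP transcription factors, which are held in the endoplasmic reticulum with SCAP by the INSIG proteins when sterol is plentiful and are released to the nucleus when it is scarce. In the liver SREBP-2, the product of Srebf2, acts mainly on sterol genes. SREBP-1c, a product of Srebf1, acts mainly on lipogenic genes together with the liver X receptor, insulin and the glucose-sensing factor ChREBP, encoded by Mlxipl. SREBP proteins bind DNA beside the factor NF-Y, whose site contains the letters CCAAT.

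Promoter sequence was available for 33 of the 39 listed genes, in 45 windows, from RefSeq (GRCm38.p6). The 250 bases before the annotated start are shown for 5 of the 6 genes that passed the test in at least 1 comparison, 5′ to 3′ on the gene's strand, with motif matches in capitals (CCAAT or its reverse complement ATTGG, and TCACNCCAC, a form of the sterol regulatory element). Srebf1, the other gene, has several annotated starts and is not shown. The windows are Hmgcs1 at chr13:119690101-119690350 (+), Srebf2 at chr15:82147019-82147268 (+), Ebp at chrX:8193513-8193762 (-), Acss2 at chr2:155517793-155518042 (+) and Thrsp at chr7:97417551-97417800 (-).
Hmgcs1: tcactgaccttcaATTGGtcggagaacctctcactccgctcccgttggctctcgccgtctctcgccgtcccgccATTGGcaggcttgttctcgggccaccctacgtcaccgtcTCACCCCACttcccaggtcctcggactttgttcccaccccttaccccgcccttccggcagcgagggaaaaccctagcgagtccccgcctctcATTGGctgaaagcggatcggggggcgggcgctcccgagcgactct
Srebf2: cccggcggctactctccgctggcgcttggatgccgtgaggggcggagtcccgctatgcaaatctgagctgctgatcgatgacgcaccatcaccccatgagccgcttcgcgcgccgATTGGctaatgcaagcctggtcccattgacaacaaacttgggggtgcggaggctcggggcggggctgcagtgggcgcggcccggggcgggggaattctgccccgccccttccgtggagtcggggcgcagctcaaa
Ebp: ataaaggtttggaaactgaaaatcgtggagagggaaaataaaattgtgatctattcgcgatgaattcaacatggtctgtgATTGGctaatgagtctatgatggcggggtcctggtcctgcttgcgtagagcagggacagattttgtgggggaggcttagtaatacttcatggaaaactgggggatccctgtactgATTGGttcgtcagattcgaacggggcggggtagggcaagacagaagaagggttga
Acss2: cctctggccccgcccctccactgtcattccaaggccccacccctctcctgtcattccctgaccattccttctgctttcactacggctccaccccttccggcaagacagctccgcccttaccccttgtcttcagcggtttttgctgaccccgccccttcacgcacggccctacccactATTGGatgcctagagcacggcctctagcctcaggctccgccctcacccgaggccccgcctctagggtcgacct
Thrsp: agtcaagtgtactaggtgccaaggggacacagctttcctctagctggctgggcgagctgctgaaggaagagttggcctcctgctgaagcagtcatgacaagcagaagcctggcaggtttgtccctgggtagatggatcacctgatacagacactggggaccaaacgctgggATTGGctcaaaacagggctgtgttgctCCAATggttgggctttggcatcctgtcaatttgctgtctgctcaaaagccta

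All 5 windows held the NF-Y letters. Hmgcs1 had 3 such matches, at 237, 176 and 45 bases before the start. It also had the only match to TCACNCCAC among sterol arm genes with a window, TCACCCCAC at 137 bases before the start. Other forms of the sterol regulatory element were not searched. Ebp and Thrsp had 2 NF-Y matches each, and Srebf2 and Acss2 had 1 each. Over the genes with a window, CCAAT was present on either strand in 17 of 19 sterol arm genes (89.5%) and 10 of 14 lipogenic genes (71.4%), against 37.5% of all genes with a window of this length. The E-box CACGTG was present in 5 of 19 sterol arm genes (26.3%) and 2 of 14 lipogenic genes (14.3%), against 6.86% of all genes, and TCACNCCAC in 1 gene of each arm (Hmgcs1 and Mlxipl), against 1.22%. The 19 sterol arm genes include Acat2, which held none of the 3 motifs. A gene was counted once per motif, whether or not matches of different motifs overlapped, and a gene with several windows counted if any of them matched. Per window, CCAAT was in 66.7% of sterol arm and 55.6% of lipogenic windows, against 33.8% of all windows. For CACGTG these shares were 18.5%, 11.1% and 6.02%. A match is a string of letters in a window, not a measured binding site.

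The arrays were alike in scale, with array medians of log2 signal between 4.90 and 5.05 and correlations of 0.981 to 0.991 within a genotype. Casp8, Ripk3 and Ikbkb were lower on every array labelled as lacking them than on the others. Traf2 went against its label, at 6.21 to 6.40 in WT and 6.87 to 7.53 in the 3 knockout genotypes. The position of its probes relative to the deleted part was not analysed here. The hepatocyte marker Alb lay at 12.94 to 13.48 on all 16 arrays. Array names hold a letter and a number, which were read here as a plate row and column. On this reading the WT and IKKβ triple KO samples were in column 5 and the other 2 genotypes in column 7. Rows A to D held the WT and RIPK3 triple KO animals and rows E to H the rest. Each genotype thus filled a block of its own, and plate position and genotype cannot be told apart in any of the 6 comparisons. WT replicate 1 stood apart from the other arrays over all genes (array weight 0.461, against 0.597 to 1.58), and TRAF2/Casp8 KO replicate 4 differs from the others in the prefix of its array name. Results that change without either array are given below.

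**Figure D1:**
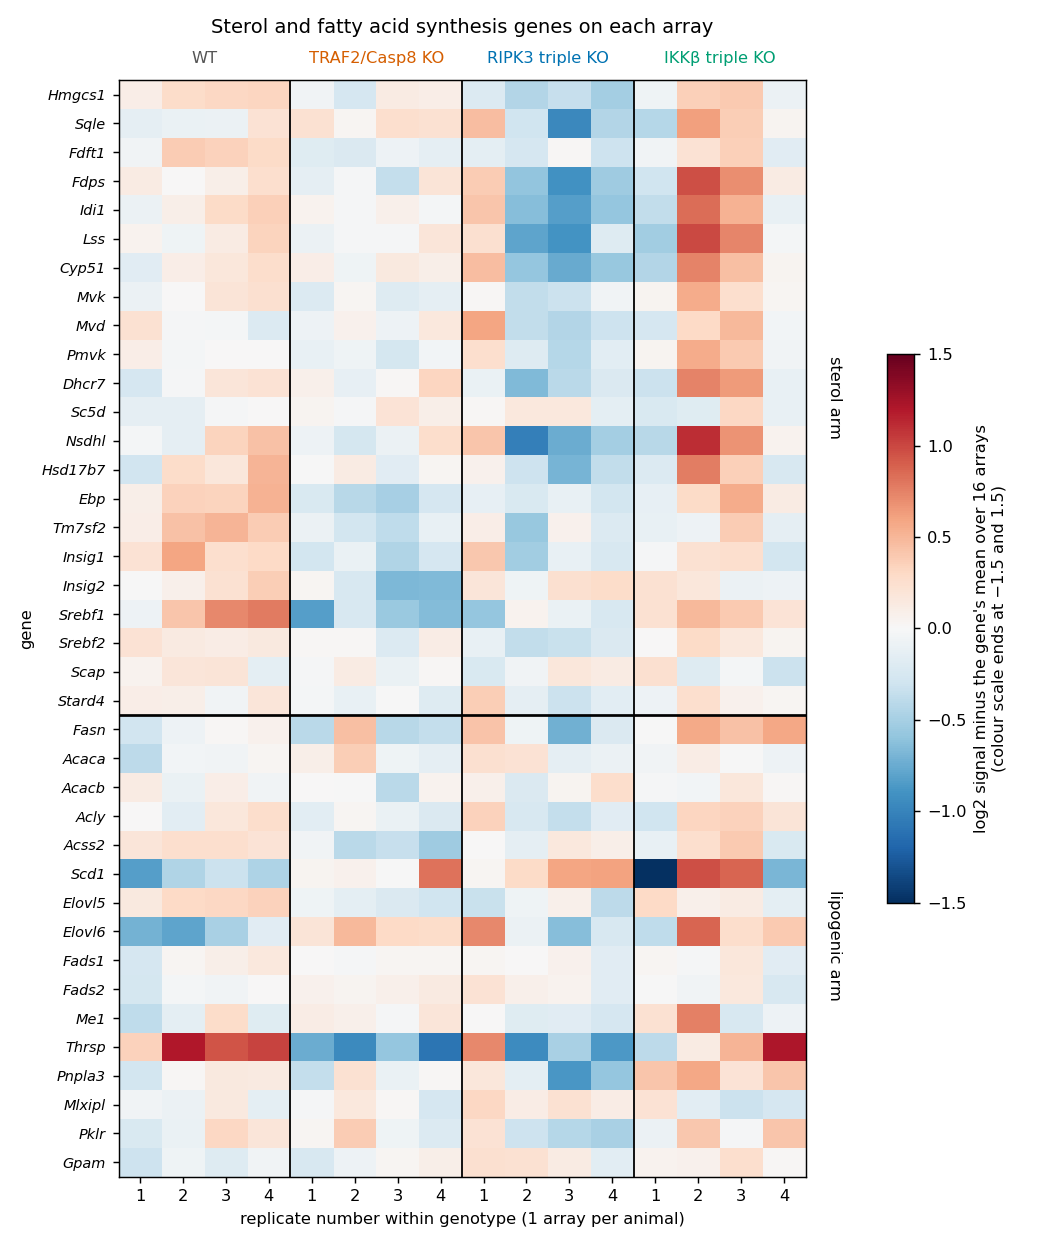
Log2 signal of the 38 genes (rows) on the 16 arrays (columns, grouped by genotype and numbered by replicate), each minus the gene's own mean over all arrays, so levels are not compared between genes. Most sterol arm rows are blue in RIPK3 triple KO replicates 2, 3 and 4 and red in IKKβ triple KO replicates 2 and 3, and Srebf1 and Thrsp are blue in all 4 TRAF2/Casp8 KO arrays.

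The main differences were as follows, with the errors of the single-gene differences given below. TRAF2/Casp8 KO livers had less Srebf1, Ebp, Thrsp and Acss2 signal than WT. In RIPK3 triple KO livers Hmgcs1 and Srebf2 were lower than in WT, and 21 of 22 sterol arm genes had a mean below that of WT. That count is of genes measured in the same 4 animals, and the arm mean of 1 of these animals lay inside the WT range. IKKβ triple KO livers had more Srebf1 signal than TRAF2/Casp8 KO livers, and none of the 38 genes passed the test against WT. Within RIPK3 triple KO and within IKKβ triple KO, sterol enzymes varied more between animals than the median gene did. The test was limma's moderated comparison in 1 model of the 4 genotypes, with Benjamini-Hochberg adjustment over all 35556 probe sets and a threshold of 0.05. Every adjusted p below is from it. Each SE draws on the spread within all 4 genotypes, not only within those compared. Over the 4 genotypes together, 4 of the 38 genes differed (Hmgcs1, Ebp, Srebf1 and Thrsp by limma's F test), against 3.87% of all genes. That count was 2 (Ebp and Srebf1) without WT replicate 2, 3 or 4, TRAF2/Casp8 KO replicate 4, IKKβ triple KO replicate 2, or RIPK3 triple KO replicate 2 or 4.

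In TRAF2/Casp8 KO against WT, 4 of the 38 genes were lower and 0 higher. Over all genes 3.31% passed in either direction and 1.14% were lower. At an unadjusted p under 0.05 there were 11 of 38 (28.9%), against 16.4% of all genes. Srebf1, the gene of SREBP-1, read 8.37, 8.87, 9.17 and 9.23 in the WT livers and 7.62, 8.21, 7.89 and 7.80 in the TRAF2/Casp8 KO livers. Every WT value lay above every knockout value. The mean fell from 8.91 ± 0.39 to 7.88 ± 0.25 (SD, n = 4 each), a 2.04-fold lower signal (log2 difference −1.03 ± 0.18 SE, limma adjusted p = 0.00691). Which of the SREBP-1a and SREBP-1c transcripts the probe set reads was not analysed here.

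Ebp, the sterol isomerase late in cholesterol synthesis, was the other sterol arm gene that passed. Its WT values were 8.85, 9.11, 9.10 and 9.28, and its TRAF2/Casp8 KO values 8.53, 8.34, 8.26 and 8.51. The groups did not overlap, and the difference was −0.68 ± 0.13 (log2, SE, adjusted p = 0.0112, 1.60-fold lower). Both Srebf1 and Ebp still passed when any 1 of the 8 arrays was left out, with adjusted p of at most 0.0323 and 0.0426. Srebf1 had an adjusted p of 0.0544 when the model held only these 2 genotypes.

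Thrsp, a thyroid hormone-responsive protein that promotes lipogenesis, had the largest difference of the 38 genes in this comparison. It read 4.98, 5.83, 5.57 and 5.65 in WT and 3.89, 3.68, 4.05 and 3.53 in TRAF2/Casp8 KO, with no overlap. The measured signal fell by 1.72 on the log2 scale (SE 0.36, adjusted p = 0.019). Signal this low was not tested against background, so the size of the fall is not exact and may be understated. Acss2, which makes acetyl-CoA from acetate, read 6.69, 6.76, 6.75 and 6.71 in WT and 6.45, 6.10, 6.16 and 5.97 in the knockout. The WT values were tightly grouped and all above the knockout values, a 1.47-fold difference (log2 −0.56 ± 0.13 SE, adjusted p = 0.0393). Thrsp did not pass when WT replicate 2, 3 or 4, or the knockout's replicate 1 or 4, was left out (adjusted p 0.0513 to 0.068). Of the 8 fits with 1 array left out, Acss2 passed only in the one lacking TRAF2/Casp8 KO replicate 1, and had an adjusted p of 0.0566 to 0.131 in the other 7. The count of genes that passed was 2 (Ebp and Srebf1) when WT replicate 2, 3 or 4 was left out, or the knockout's replicate 4, and 6 without WT replicate 1 (Fdft1, Ebp, Tm7sf2, Srebf1, Elovl5 and Thrsp).

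**Figure D2:**
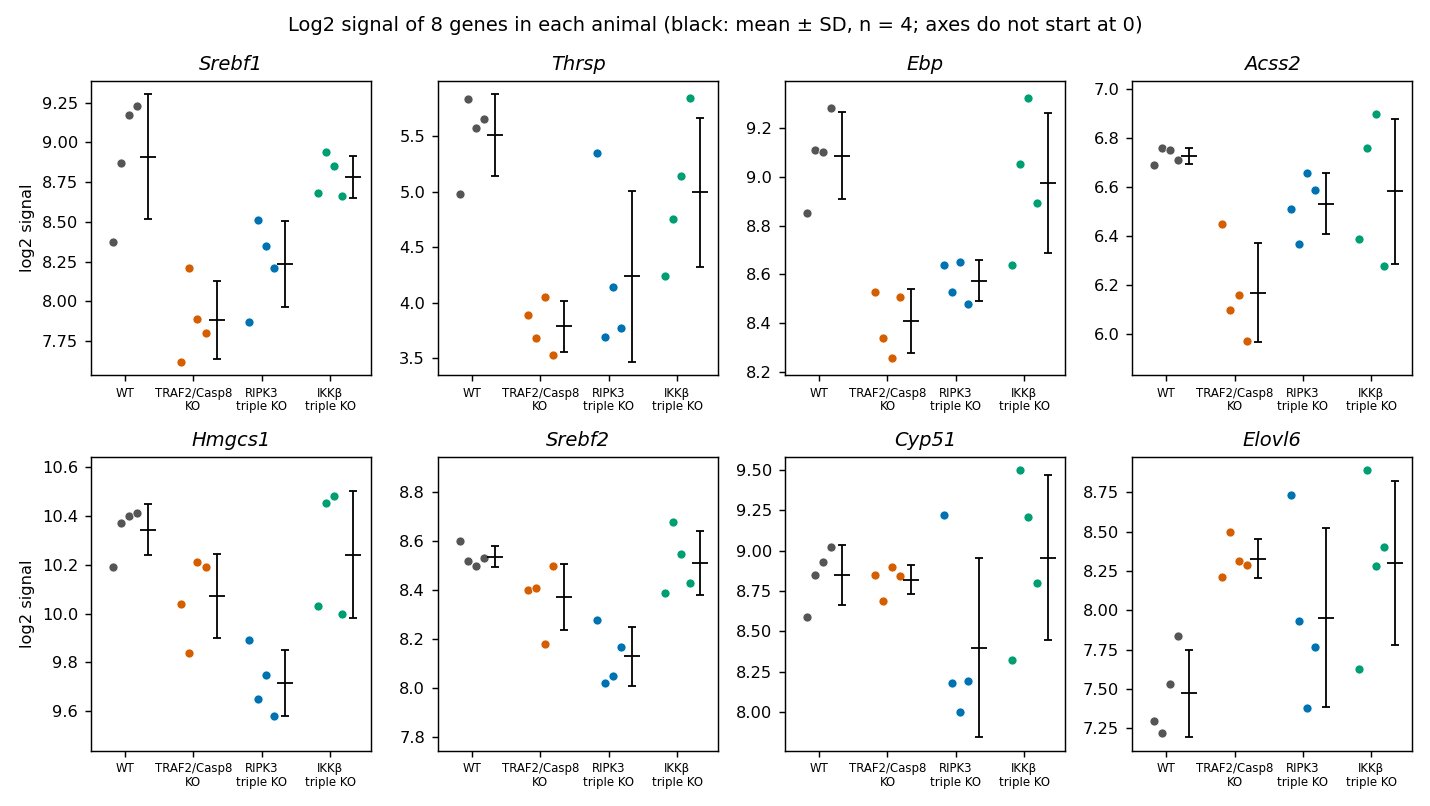
Log2 signal of 8 genes in every animal, by genotype (coloured points), with the mean and SD of 4 animals in black at the right of each group; the vertical axes differ and do not start at 0. Srebf1, Thrsp, Ebp and Acss2 are lower in all TRAF2/Casp8 KO animals than in any WT animal, Hmgcs1 and Srebf2 are lower in all RIPK3 triple KO animals than in any WT animal, and 1 RIPK3 triple KO animal stands at 9.22 for Cyp51 against 8.00 to 8.19 in the other 3.

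Insig1 and Insig2, of the control machinery, lay short of the threshold in this comparison. Insig1, an SREBP target that retains SCAP in the endoplasmic reticulum, had a log2 difference of −0.60 ± 0.17 (SE, adjusted p = 0.089), with no overlap between the groups. Insig2, which does the same but is regulated differently, had −0.55 ± 0.15 (adjusted p = 0.0781), and its knockout values spread widely, at 9.39, 9.12, 8.68 and 8.69 against 9.35 to 9.73 in WT. Srebf2 and Scap had −0.16 ± 0.09 and −0.06 ± 0.13. All 5 machinery genes were below 0, with a median of −0.55, and 1 of the 5 passed.

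Of the enzymes of the mevalonate and sterol steps, only Ebp passed. Over the 16 enzymes and Stard4 the log2 differences ran from −0.68 for Ebp to 0.21 for Sqle, and 13 of 17 were below 0. Hmgcs1, the enzyme that makes HMG-CoA, had −0.27 ± 0.12 (SE, adjusted p = 0.343), with values of 10.19, 10.37, 10.40 and 10.41 in WT and 10.04, 9.84, 10.21 and 10.19 in the knockout, which overlapped only at the lowest WT animal. Sqle, squalene epoxidase, read 7.87, 7.91, 7.92 and 8.22 in WT and 8.23, 8.03, 8.26 and 8.24 in the knockout (0.21 ± 0.25, adjusted p = 0.783). Tm7sf2, a sterol reductase, and Fdft1, squalene synthase, had −0.57 ± 0.15 and −0.39 ± 0.12 (adjusted p = 0.0746 and 0.136), both without overlap. The median over the sterol arm was −0.17, over the lipogenic arm 0.00 and over all genes −0.01. Leaving out single arrays moved the lipogenic median between −0.08 (TRAF2/Casp8 KO replicate 2) and 0.06 (WT replicate 3).

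In the lipogenic arm 8 of 16 genes were above 0 in this comparison and 8 below. This is near the share over all genes, of which 47.3% were above 0 and 52.7% below. Elovl6, which elongates saturated fatty acids, had the highest log2 difference of the 38 genes, 0.85 ± 0.27 (SE, adjusted p = 0.129), with 8.21 to 8.50 in TRAF2/Casp8 KO and 7.22 to 7.84 in WT. Scd1, the stearoyl-CoA desaturase, read 6.89, 7.27, 7.40 and 7.26 in WT and 7.76, 7.78, 7.71 and 8.54 in the knockout. Its groups did not overlap, yet its difference of 0.74 ± 0.43 had an adjusted p of 0.48. Elovl5, which elongates polyunsaturated fatty acids, had −0.46 ± 0.11 (adjusted p = 0.0522). Fasn, the fatty acid synthase itself, read 7.73, 7.94, 8.03 and 8.08 in WT and 7.61, 8.47, 7.60 and 7.66 in the knockout (−0.11 ± 0.23, adjusted p = 0.894). Knockout replicates 1, 3 and 4 lay below all WT animals and replicate 2 above them. Of the 38 genes, 3 were higher and 9 lower with no overlap between the groups, and 11.6% of all genes did not overlap in either direction.

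Some markers of bile duct cells moved with this comparison. Of 6 measured cholangiocyte markers, 4 (Sox9, Cldn7, Cldn4 and Epcam) were higher in TRAF2/Casp8 KO, with a median log2 difference of 1.05 over the list. The keratins Krt7 and Krt19 did not pass, at 0.18 and −0.19 (limma adjusted p = 0.698 and 0.881). Over all 6 markers, the mean deviation from each marker's 16-array mean was −0.58 to −0.28 in WT and 0.38 to 0.53 in TRAF2/Casp8 KO. It was 0.05 to 0.34 among RIPK3 triple KO animals and −0.54 to 0.11 among IKKβ triple KO animals. The part of these markers in the differences of Srebf1, Ebp, Thrsp and Acss2 was not tested. Of 9 hepatocyte markers, 0 passed limma's test in any of the 6 comparisons, with 0 to 2 at an unadjusted p under 0.05, and their mean deviation stayed between −0.21 and 0.17 on all arrays. In TRAF2/Casp8 KO against WT all 9 were below 0, with a median of −0.08 and Arg1 lowest at −0.58 (adjusted p = 0.0957). Of the 9, 3 did not overlap WT, against 11.6% of all genes. All 9 erythroid and all 10 neutrophil and myeloid precursor markers were also below 0 there (medians −0.43 and −0.45). Stellate and lymphocyte markers were above 0 for 8 and 9 of 10. Of these 4 lists 0 passed, and their part was not tested.

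RIPK3 triple KO was compared with WT in the same way, and the 2 comparisons share the WT arrays. Here 2 of the 38 genes were lower, Hmgcs1 and Srebf2, and 0 were higher. Of all genes 3.11% passed in either direction and 1.16% were lower. At an unadjusted p under 0.05 there were 12 of 38 (31.6%), against 15.6% of all genes. Hmgcs1 read 9.89, 9.65, 9.75 and 9.58 in RIPK3 triple KO against 10.19 to 10.41 in WT. The groups did not overlap, and the signal fell 1.54-fold, from 10.34 ± 0.11 to 9.72 ± 0.14 (SD, n = 4; log2 −0.62 ± 0.12 SE, adjusted p = 0.0165). Srebf2, the gene of SREBP-2, read 8.60, 8.52, 8.50 and 8.53 in WT and 8.28, 8.02, 8.05 and 8.17 in RIPK3 triple KO. The WT values were close together and all above the others, a 1.33-fold difference (log2 −0.41 ± 0.09 SE, adjusted p = 0.0272).

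Both calls depended on single arrays. Hmgcs1 had an adjusted p of 0.0545 without WT replicate 3 and 0.0523 without WT replicate 4. Srebf2 had 0.0639 to 0.0857 without WT replicate 2, 3 or 4 or RIPK3 triple KO replicate 2 or 3, and 0.0821 at most under the other alternatives. The count of genes that passed ran from 0 without WT replicate 3 or 4, over 1 (Hmgcs1) without WT replicate 2 or RIPK3 triple KO replicate 2, to 4 without RIPK3 triple KO replicate 1 and 6 without WT replicate 1. Without WT replicate 1 the 6 were Hmgcs1, Srebf2, Fdft1, Ebp, Srebf1 and Elovl5.

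Most sterol arm genes other than these had lower means in RIPK3 triple KO too, without passing the test. The arm's median log2 difference from WT was −0.43 and 21 of 22 genes were below 0 (95.5%), against a median of −0.01 and 52.1% of all genes. These genes were measured in the same animals, and the arm mean of replicate 1, at 0.13, lay inside the WT range of 0.00 to 0.26. The gene above 0 was Sc5d, lathosterol oxidase (0.12 ± 0.11). Nsdhl, Idi1, Fdps, Lss and Cyp51, enzymes between isoprenoid assembly and sterol demethylation, had differences of −0.62, −0.57, −0.53, −0.52 and −0.45 with standard errors of 0.26 to 0.32 and adjusted p of 0.347 to 0.469. For Hmgcs1 the standard error was 0.12. The lipogenic arm had a median of −0.03, with 9 of 16 genes below 0, and this median had no settled sign: it was −0.12 without WT replicate 1 and 0.03 without WT replicate 3. Ebp, Srebf1 and Elovl5 lay near the threshold, at −0.51 ± 0.13, −0.68 ± 0.18 and −0.46 ± 0.11 (adjusted p = 0.0547, 0.0742 and 0.0501). Thrsp had −1.27 ± 0.36 (adjusted p = 0.087), with RIPK3 triple KO animals at 5.35, 3.69, 4.14 and 3.77, of which the first lay inside the WT range. Scd1 had 0.89 ± 0.43 (adjusted p = 0.362), at 7.75, 8.01, 8.31 and 8.32, all above the WT values. Fasn, at 8.44, 7.95, 7.29 and 7.80, had −0.07 ± 0.23 (adjusted p = 0.933). With no overlap between the groups, 5 of the 38 genes were lower and 1 higher, against 9.08% of all genes. Cell markers moved here as well: 2 of 6 cholangiocyte markers (Sox9 and Epcam) and 1 of 10 stellate cell markers (Rgs5, by 1.16 on the log2 scale, adjusted p = 0.0132) were higher, and 1 of 10 neutrophil and myeloid precursor markers was lower (Mmp8). All 10 neutrophil and myeloid precursor markers were below 0, with a median of −1.31, as were all 9 erythroid markers, with a median of −0.96. Their part in the sterol values was not tested.

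**Figure D3:**
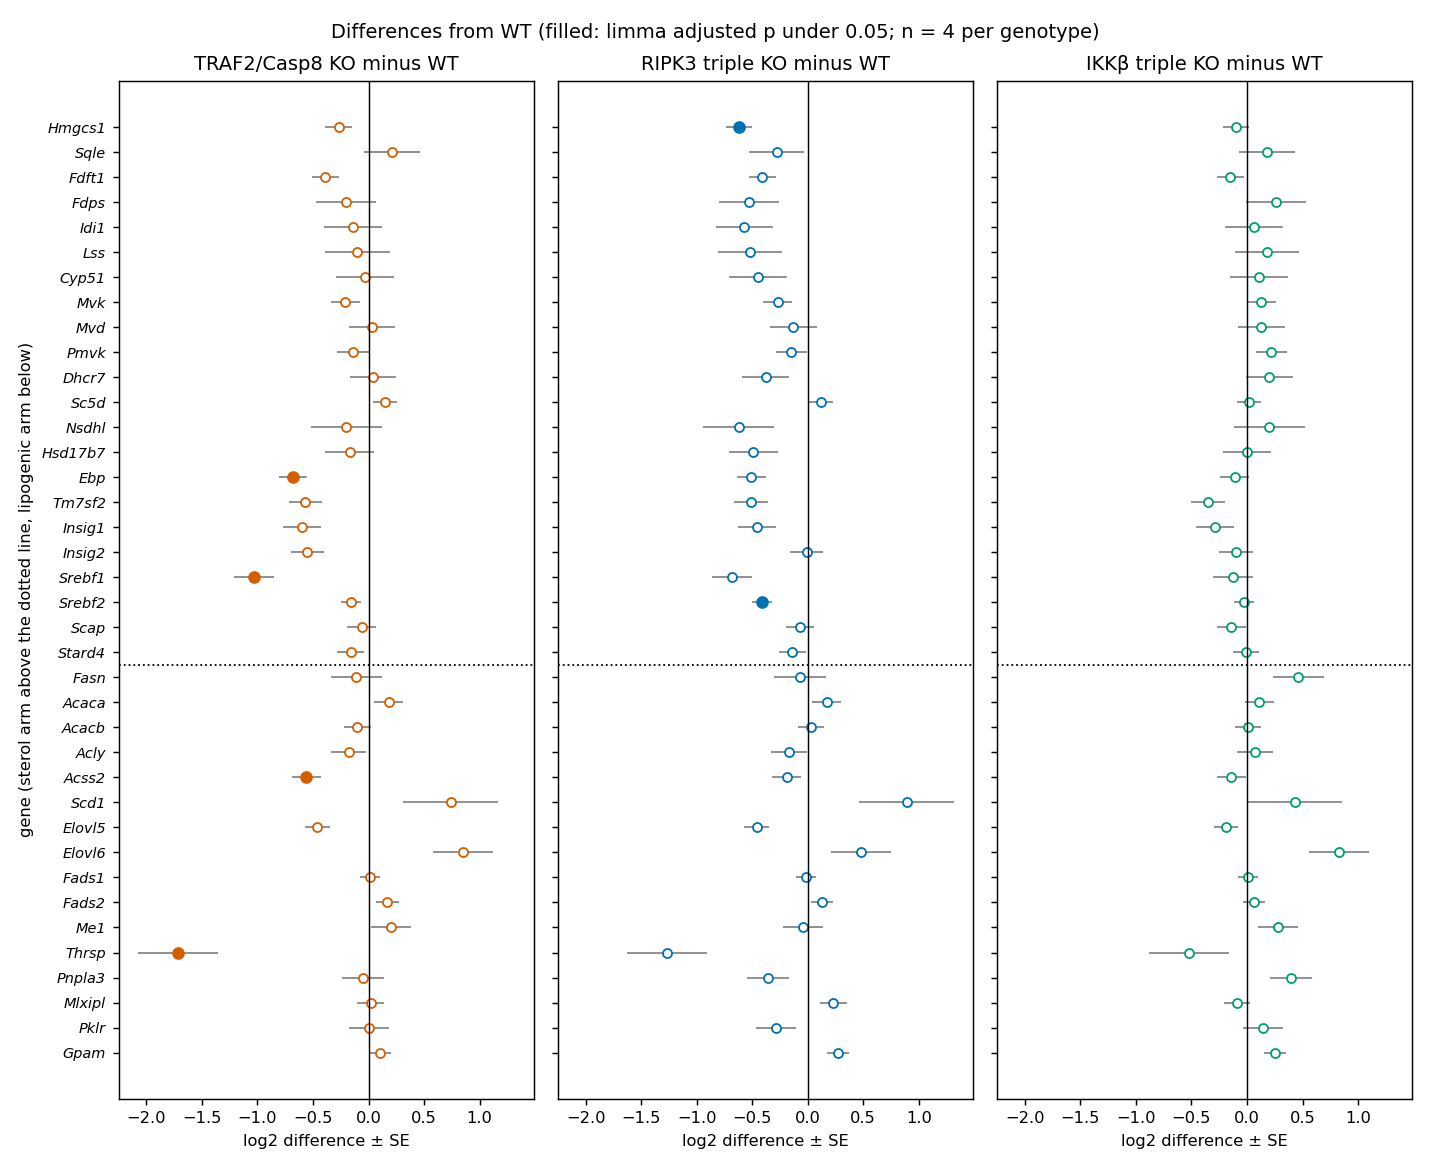
Log2 difference from WT of each of the 38 genes, with its standard error from the limma model, for TRAF2/Casp8 KO, RIPK3 triple KO and IKKβ triple KO (n = 4 per genotype; all 3 panels share the WT arrays); filled points passed the threshold. In the RIPK3 triple KO panel 21 of 22 sterol arm points lie left of 0, and in the IKKβ triple KO panel 11 lie on each side.

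When RIPK3 triple KO was set against TRAF2/Casp8 KO, which shares its plate column but not its rows and differs from it only in Ripk3 by label, 0 of the 38 genes passed by limma, against 0.329% of all genes. At an unadjusted p under 0.05 there were 4 of 38 (10.5%), against 11.1% of all genes. The 5 machinery genes had differences from −0.25 for Srebf2 to 0.55 for Insig2, and Srebf1 stood at 0.35 ± 0.18 (SE, adjusted p = 0.551), at 7.87, 8.51, 8.35 and 8.21 in RIPK3 triple KO. Over the 16 enzymes and Stard4 the median was −0.32, with 14 of 17 below 0, and Sqle had the lowest value, −0.49 ± 0.25 (adjusted p = 0.54). The sterol arm had a median of −0.10, or −0.22 when RIPK3 triple KO replicate 1 was left out. It was −0.05 after centring each array. The lipogenic median was 0.00, and −0.05 to 0.07 with single arrays left out (lowest without RIPK3 triple KO replicate 1, highest without its replicate 3 or TRAF2/Casp8 KO replicate 2). Of 6 cholangiocyte markers 1 was lower (Cldn7, adjusted p = 0.0117), and all 10 neutrophil and myeloid precursor markers were below 0 (median −0.98), 6 of them at an unadjusted p under 0.05. Their part in the enzyme values was not tested. In 0 of the 38 genes were the groups free of overlap, against 6.87% of all genes.

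IKKβ triple KO was compared with TRAF2/Casp8 KO to set the loss of IKKβ against its own background. Srebf1 was the 1 gene of 38 that passed, and it was higher. Among all genes 1.02% passed, and 0.117% were higher. It read 8.68, 8.94, 8.85 and 8.66 in IKKβ triple KO, all above the TRAF2/Casp8 KO range of 7.62 to 8.21, a 1.87-fold difference (log2 0.90 ± 0.18 SE, adjusted p = 0.038). The call was kept without TRAF2/Casp8 KO replicate 2 and lost without any 1 of the other 7 arrays (adjusted p 0.0635 to 0.151); Ebp passed without IKKβ triple KO replicate 1. With all arrays Ebp had 0.57 ± 0.13 (adjusted p = 0.0665), at 8.64, 9.05, 9.32 and 8.89. Thrsp had 1.20 ± 0.36 (adjusted p = 0.208), at 4.24, 4.75, 5.14 and 5.84. These 3 genes were the ones without overlap between the groups, against 7.48% of all genes. Acss2 had 0.42 ± 0.13 (adjusted p = 0.243), at 6.39, 6.76, 6.90 and 6.28, and Fasn 0.57 ± 0.23 (adjusted p = 0.427). At an unadjusted p under 0.05 there were 10 of 38 genes (26.3%), against 10.7% of all genes. The arm medians were 0.21 (sterol) and 0.13 (lipogenic), against 0.00 over all genes. The sterol median was 0.34, 0.10 and 0.13 without IKKβ triple KO replicate 1, 2 and 3 in turn, and the lipogenic median 0.08 without TRAF2/Casp8 KO replicate 3. Of the cholangiocyte markers, 3 of 6 were lower here. Below 0 were 9 of 10 stellate markers (median −0.29, 4 at an unadjusted p under 0.05). Above 0 were all 9 erythroid and 9 of 10 neutrophil and myeloid precursor markers (medians 0.47 and 0.20). Of the stellate, erythroid and neutrophil markers 0 passed limma's test. The part of all these markers was not tested.

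Against WT, with which they share a plate column but no row, IKKβ triple KO livers had 0 of 38 genes past the threshold by limma, and 0.0372% of all genes passed. At an unadjusted p under 0.05 there were 3 of 38 (7.89%), against 6.45% of all genes. Srebf1 had −0.13 ± 0.18, Ebp −0.11 ± 0.13, Hmgcs1 −0.10 ± 0.12 and Srebf2 −0.03 ± 0.09 (log2, SE), with adjusted p of 0.933 to 0.987. The sterol arm had 11 genes on each side of 0 and a median of 0.01, which ran from −0.08 without IKKβ triple KO replicate 2 to 0.10 without its replicate 1. Within it all 5 machinery genes were below 0 (median −0.13), and 11 of the 17 enzymes and Stard4 were above 0 (median 0.11). In the lipogenic arm 12 of 16 genes were above 0. Elovl6 had 0.83 ± 0.27 (adjusted p = 0.653) and Fasn 0.46 ± 0.23 (adjusted p = 0.804), with Fasn at 8.01, 8.58, 8.45 and 8.59. Pnpla3, a lipid droplet protein with lipase and acyltransferase activity, and Gpam, which starts glycerolipid synthesis, were the 2 genes without overlap, both higher, at 0.40 ± 0.19 and 0.25 ± 0.10; 3.92% of all genes did not overlap. A p above the threshold does not show that the genotypes were alike, and the 95% interval of the Srebf1 difference ran from −0.52 to 0.26.

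IKKβ triple KO against RIPK3 triple KO gave 1 gene past the threshold, Srebf2, higher in IKKβ triple KO. Over all genes 2.00% passed and 0.627% were higher. At an unadjusted p under 0.05 there were 18 of 38 (47.4%), against 16.7% of all genes. Sterol enzymes varied together between animals of both genotypes, so these are not independent genes. Srebf2 read 8.39, 8.68, 8.55 and 8.43 in IKKβ triple KO, above all 4 RIPK3 triple KO values (log2 0.38 ± 0.09 SE, adjusted p = 0.0456, 1.30-fold). Leaving out replicate 2, 3 or 4 of either genotype ended the call (adjusted p 0.0683 to 0.132, and a count of 0). Hmgcs1 had 0.52 ± 0.12 (adjusted p = 0.051), at 10.03, 10.45, 10.48 and 10.00 in IKKβ triple KO. The count was 2 without RIPK3 triple KO replicate 1 and 4 without IKKβ triple KO replicate 1 (Hmgcs1, Ebp, Srebf2 and Mlxipl). In the sterol arm 19 of 22 genes were above 0, with a median of 0.40, and Nsdhl, Fdps and Lss had the largest values, 0.82, 0.79 and 0.70 (SE 0.27 to 0.32, adjusted p = 0.177 to 0.261). The lipogenic median was 0.15 (0.08 without IKKβ triple KO replicate 2 or 3), and Pnpla3 had 0.76 ± 0.19 (adjusted p = 0.0643). With no overlap, 5 of the 38 genes were higher (Hmgcs1, Mvk, Srebf1, Srebf2 and Pnpla3), against 9.01% of all genes. Of the cell markers, the cholangiocyte marker Sox9 and the stellate marker Rgs5 were lower (Rgs5 by a log2 difference of −1.12, adjusted p = 0.0236), and all 10 stellate markers were below 0 (median −0.23). All 10 neutrophil and all 9 erythroid markers were above 0 (medians 1.14 and 0.98), with 0 past limma's threshold and 9 and 1 at an unadjusted p under 0.05. The part of these markers was not tested.

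The order of the genotype means differed between the arms. In the sterol arm RIPK3 triple KO had the lowest mean for 14 of 22 genes (63.6%) and the highest for 0, whereas over all genes it had the lowest mean for 28.2% and the highest for 26.8%. Among the 16 enzymes and Stard4 it was lowest for 13 of 17. TRAF2/Casp8 KO was lowest for 6 sterol arm genes, among them Srebf1 and Ebp. The highest mean was in WT for 11 sterol arm genes and in IKKβ triple KO for 9. In the lipogenic arm the lowest mean fell in WT, TRAF2/Casp8 KO and RIPK3 triple KO for 5 genes each and in IKKβ triple KO for 1. These ranks rest on means whose neighbours often did not differ beyond their spread.

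Averaged over the 22 sterol arm genes, the deviation from each gene's 16-array mean was 0.00, 0.13, 0.20 and 0.26 in the WT animals and −0.09, −0.09, −0.15 and −0.03 in the TRAF2/Casp8 KO animals. For the RIPK3 triple KO animals it was 0.13, −0.38, −0.37 and −0.27, and for the IKKβ triple KO animals −0.14, 0.46, 0.38 and −0.05. The RIPK3 triple KO group thus holds 3 low animals and 1 inside the WT range, and the IKKβ triple KO group 2 animals above WT and 2 below it. The lipogenic arm averaged −0.20 to 0.10 in WT, −0.12 to 0.04 in TRAF2/Casp8 KO, −0.17 to 0.21 among RIPK3 triple KO animals and −0.10 to 0.30 among IKKβ triple KO animals, with all 4 ranges overlapping. The sterol mean minus the lipogenic mean was 0.10 to 0.20 in WT, −0.14 to 0.06 in TRAF2/Casp8 KO, −0.28 to −0.08 for RIPK3 triple KO animals and −0.13 to 0.17 for IKKβ triple KO animals. On this measure the WT animals lay above all animals of TRAF2/Casp8 KO and RIPK3 triple KO and overlapped IKKβ triple KO. The separation from TRAF2/Casp8 KO depended on the 5 control genes. With the 16 enzymes and Stard4 alone set against the lipogenic arm, WT lay at 0.07 to 0.18 and TRAF2/Casp8 KO at −0.14 to 0.14, which overlap.

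**Figure D4:**
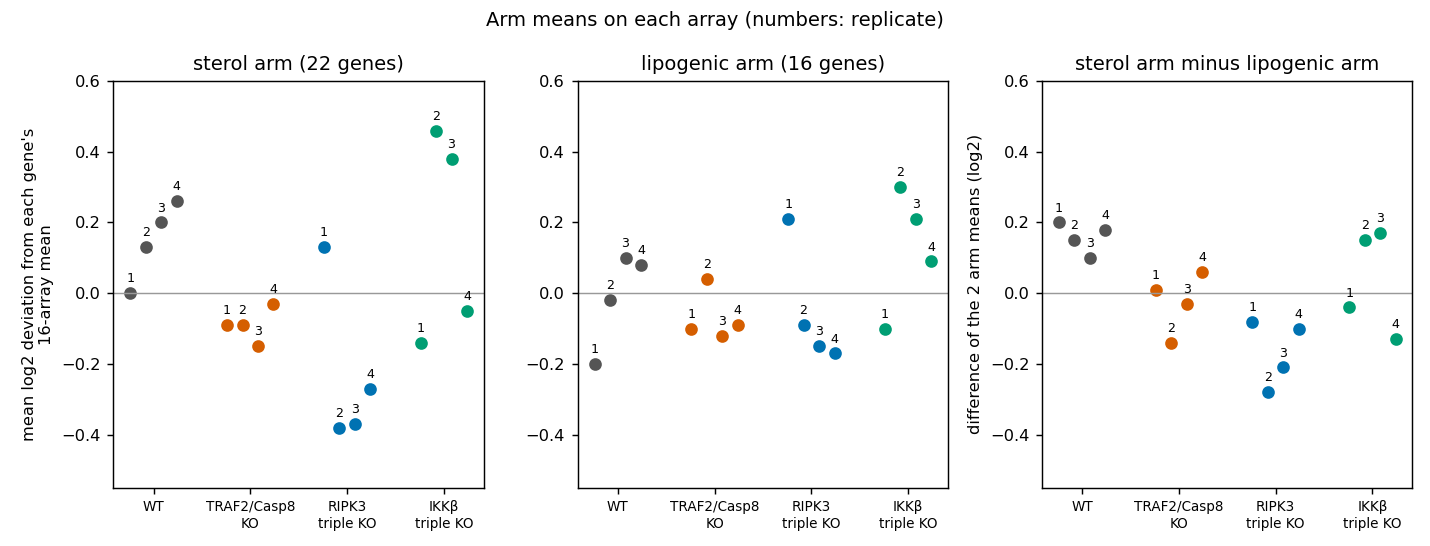
Mean log2 deviation of the sterol arm (22 genes), the lipogenic arm (16 genes) and their difference on each of the 16 arrays, by genotype, each gene first set against its own mean over all arrays; small numbers are replicate numbers. In the sterol panel RIPK3 triple KO replicates 2, 3 and 4 lie at −0.38 to −0.27 and replicate 1 at 0.13, and IKKβ triple KO replicates 2 and 3 lie at 0.46 and 0.38.

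Animals of one genotype were spread apart in the sterol enzymes. For the 16 enzymes and Stard4 the median range over 4 animals reached 0.69 among RIPK3 triple KO livers and 0.74 among IKKβ triple KO livers, against 0.41 in WT and 0.24 in TRAF2/Casp8 KO. Over all genes it was 0.36, 0.33, 0.34 and 0.31 in the same order. The lipogenic arm had 0.47, 0.52, 0.41 and 0.43, so wider ranges than over all genes were not particular to the sterol enzymes. RIPK3 triple KO replicate 1 was the highest of its group for 14 of the 17 sterol genes. The same held for 11 of 16 lipogenic genes and for 3945 of all 18820 genes. IKKβ triple KO replicates 2 and 3 both lay above replicates 1 and 4 for 16 of the 17 sterol genes. This was so for 5 of 16 lipogenic genes and 3243 of all 18820. Cyp51, lanosterol demethylase, shows both, an example chosen after its values were seen. It read 9.22, 8.18, 8.00 and 8.19 in RIPK3 triple KO animals, then 8.32, 9.50, 9.21 and 8.80 in IKKβ triple KO animals, against 8.59 to 9.02 in WT and 8.69 to 8.90 in TRAF2/Casp8 KO. Sqle followed the same animals, at 8.47, 7.71, 7.04 and 7.57 in the former and 7.58, 8.62, 8.38 and 8.05 in the latter. Scd1 had the widest range of the 38 genes within a genotype, at 6.21, 8.69, 8.60 and 7.04 in IKKβ triple KO. Without RIPK3 triple KO replicate 1 the sterol arm median against WT was −0.53, and without WT replicate 1 it was −0.50.

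Signals of other cells also varied between the same animals. The mean deviation of 10 neutrophil and myeloid precursor markers was −1.70, −1.14, −0.84 and 0.06 in the RIPK3 triple KO animals. It was −0.14, 0.05, 0.66 and 0.97 in the IKKβ triple KO animals and 1.62, 0.31, −0.11 and 0.01 in WT. That of 9 erythroid markers ran from −1.12 to 0.71 among RIPK3 triple KO animals and from −0.51 to 1.05 among IKKβ triple KO animals. In each of the 6 comparisons 0 of the 9 passed limma's test, with 0 to 2 at an unadjusted p under 0.05. The animal with the highest sterol enzyme values in RIPK3 triple KO, replicate 1, had the lowest neutrophil and erythroid marker means of its group. For genes of fasting and feeding (12 measured) and of the circadian clock (15 measured), 0 passed limma's test in any of the 6 comparisons. At an unadjusted p under 0.05 there were 6 of 12 fasting and feeding genes in RIPK3 triple KO against WT, where 15.6% of all genes were, and 4 of 12 (33.3%) in IKKβ triple KO against RIPK3 triple KO, where 16.7% were. In the other comparisons there were 0 to 2, and for clock genes 0 to 2 in all 6. Their part in the sterol values was not tested.

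Other genes of lipid metabolism were taken from a list of 54, of which 42 were measured. In TRAF2/Casp8 KO against WT 3 were higher and 1 lower, against 408 higher and 215 lower of all 18820 genes. Elovl7, an elongase of long chains, was higher by 1.21 ± 0.24 (log2, SE, adjusted p = 0.0147). Tmem97, a sterol-responsive binding partner of NPC1, and Npc1, the lysosomal cholesterol exporter, were higher by 0.47 ± 0.10 and 0.37 ± 0.09 (adjusted p = 0.0268 and 0.0495). Abcg5, part of the pump that exports sterol into bile, was lower by 0.99 on the log2 scale (−0.99 ± 0.24, adjusted p = 0.0481), with TRAF2/Casp8 KO animals at 8.11 to 9.37 and WT at 9.89 to 10.19. Its partner Abcg8 had −0.91 ± 0.27 (adjusted p = 0.0995).

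In RIPK3 triple KO against WT 2 of these 42 genes were higher and 3 lower, against 366 higher and 219 lower of all 18820 genes. Tmem97 and Npc1 were higher by 0.47 ± 0.10 and 0.41 ± 0.09 (log2, SE, adjusted p = 0.0257 and 0.0324). Acsl5, which activates fatty acids, Mid1ip1, the paralogue of Thrsp, and Plin2, the coat protein of lipid droplets, had −0.43 ± 0.09, −0.58 ± 0.13 and −0.58 ± 0.14 (adjusted p = 0.0179, 0.0332 and 0.0388). Against RIPK3 triple KO, IKKβ triple KO had more Mid1ip1 (0.58 ± 0.13, adjusted p = 0.0403) and less Npc1 (−0.41 ± 0.09, adjusted p = 0.0388). Of all 18820 genes, 118 were higher and 259 lower there. In each of the other 3 comparisons 0 of 42 passed by limma, and the counts at an unadjusted p under 0.05 were as follows. There were 9 (21.4%) in RIPK3 triple KO against TRAF2/Casp8 KO, 9 (21.4%) in IKKβ triple KO against TRAF2/Casp8 KO and 1 (2.38%) in IKKβ triple KO against WT, where 11.1%, 10.7% and 6.45% of all genes were. Of the 11 calls named for this list, each was lost when at least 1 array was left out, with Elovl7 kept in 5 of 8 and Npc1 in TRAF2/Casp8 KO in 0 of 8.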

How the data were processed

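Per the submitters' processing notes, the authors deposited RMA values on a log2 scale (RMA corrects background, equalises the arrays' distributions and summarises each probe set). The RMA version, the software and the probe set definition: not given in the sources used here. Values ran from 0.89 to 13.65 and were used without further normalization or filter. The 4 genotypes entered 1 linear model over the 16 arrays (limma 3.58.1, R 4.3.3; lmFit, then eBayes with no trend; two-sided tests). Benjamini-Hochberg adjustment covered all 35556 probe sets, at a threshold of 0.05. The code was tested on simulated data. Of the probe sets, 21218 carried 1 symbol, 1881 several and 12457 none. The genes, the lists and the tests were chosen with earlier results of these data known. Values are given array by array for genes past the threshold in at least 1 of 6 comparisons and for Srebf1, Srebf2, Hmgcs1, Sqle, Fasn and Scd1; other genes with such values were chosen after their values were seen. Of 24 same-numbered pairs of arrays, 4 correlated above 0.1 (range −0.1 to 0.16), so replicate numbers were not taken to pair animals. The number of arrays, 4 per genotype, limits the precision. Other settings tried were an intensity trend with a robust fit, a model of only the genotypes compared, dropping the dimmest probe sets, centring, repeated quantile normalization, the mean of a gene's probe sets, array weights, a replicate block, plate row as a random block and leaving out each array. Plots used matplotlib 3.10.9 under Python 3.11.15.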

Additional observations from a re-analysis of the deposited data

Results flagged for a closer look

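Within a genotype, 9 of 160 groups of 4 values (38 genes and 2 arm means in 4 genotypes) had 1 animal far from the other 3, by a gap to the nearest animal, as a share of the whole range, above Dixon's 95% critical value for 4 samples. Chance gives about 1 in 20 such groups. Sqle was flagged in WT, where replicate 4 read 8.22 against 7.87 to 7.92 (gap 0.866 of the range), and in TRAF2/Casp8 KO, where replicate 2 read 8.03 against 8.23 to 8.26 (0.862). RIPK3 triple KO replicate 1 was flagged for Cyp51, at 9.22 against 8.00 to 8.19 (0.848), and for Mvd, mevalonate diphosphate decarboxylase, at 6.31 against 5.28 to 5.41 (0.877). IKKβ triple KO replicate 3 was flagged for Tm7sf2, at 8.87 against 8.35 to 8.41 (0.888). In TRAF2/Casp8 KO, replicate 2 was flagged for Fasn, at 8.47 against 7.60 to 7.66 (0.929), and for the lipogenic arm mean, at 0.04 against −0.12 to −0.09 (0.847). Acacb was flagged there for replicate 3, at 4.69 against 5.09 to 5.15 (0.855), and Scd1 for replicate 4, at 8.54 against 7.71 to 7.78 (0.924). Of these genes, 0 passed limma's test in a comparison.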

How the results depend on the processing

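The count of the 38 genes past the threshold moved with the fit, and none of the gene differences that were rerun under the alternatives (those at or near the threshold) changed direction. Arm medians near 0 did: the lipogenic one for RIPK3 triple KO against WT ran from −0.12 to 0.03 and the sterol one for IKKβ triple KO against WT from −0.08 to 0.10 on leaving out single arrays. Against WT, the count for RIPK3 triple KO went from 2 to 4 with an intensity trend and without the dimmest probe sets, to 6 with array weights and to 1 after centring each array. For TRAF2/Casp8 KO against WT it went from 4 to 8 with array weights and to 3 with a replicate block, where Acss2 had an adjusted p of 0.0554. For IKKβ triple KO against TRAF2/Casp8 KO it went from 1 to 2 without the dimmest probe sets and with quantile normalization again, and to 3 with array weights. For IKKβ triple KO against RIPK3 triple KO it went from 1 to 0 with only the 2 genotypes and after centring, to 2 with an intensity trend, and to 3 without the dimmest probe sets and with array weights. With a replicate block this count was 0, and the F test over 4 genotypes gave 2 genes in place of 4; the numbers do not pair the animals by the check of replicate correlations. The cause of these moves was not tested. Leaving out each array gave 2 to 6 genes for TRAF2/Casp8 KO against WT, 0 to 1 for IKKβ triple KO against TRAF2/Casp8 KO, 0 to 6 for RIPK3 triple KO against WT, 0 to 4 for IKKβ triple KO against RIPK3 triple KO and 2 to 5 for the F test. For RIPK3 triple KO against TRAF2/Casp8 KO and IKKβ triple KO against WT the count was 0 throughout. Of the single-gene values under an alternative, 351 kept their side of the threshold, 40 gained a call and 119 lost one, 93 of these on leaving out 1 array. All 204 arm medians moved by less than the spread of arm means between replicates (SD 0.201 for the sterol arm and 0.147 for the lipogenic arm). That spread was larger than several of the medians themselves, so this does not show that they were stable. Centring moved the median of all genes by at most 0.0559. Detection calls over background were not used here.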
